A study of Mus musculus with 6 samples.

Results

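The genes of MHC class II antigen presentation were followed in luminal mammary epithelial cells sorted by their level of Sox9-GFP. Of the 7 genes listed (*Ciita*, *Cd74*, *H2-Aa*, *H2-Ab1*, *H2-Eb1*, *H2-DMa* and *H2-DMb1*), 6 were measured, each by 1 probe set, among 19505 named genes on the array. *Cd74*, which encodes the invariant chain, was not analysed here. The cells came from female mice of about 3 months that carried both the Sox9-GFP reporter and the C3(1)/Tag transgene, which expresses SV40 large T antigen, on an FVB/NJ background. FACS separated the luminal cells into a Sox9-GFP-high and a Sox9-GFP-low sort, with 3 arrays each, so both transgenes were present in both sorts and no group lacked Tag. The reporter is a transgene carrying *Sox9* regulatory sequence, so the sort is by GFP and not by the SOX9 protein itself. The glands of 3 animals were used, no array number is tied to an animal, and p-values measure only the spread between these arrays, which may be technical.

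MHC class II molecules carry peptides from endosomes to the cell surface, where CD4+ T cells read them. An α and a β chain form each molecule, here H2-Aa with H2-Ab1 for I-A, while H2-Eb1 is the β chain of I-E. The invariant chain guides the new pair to the endosome, cathepsins trim it there, and H2-DM, built from H2-DMa and H2-DMb1, exchanges its remnant for a peptide. CIITA, a coactivator that does not bind DNA itself, switches the whole group on together with the RFX, CREB and NF-Y factors at paired X and Y boxes of the promoters. Dendritic cells, macrophages and B cells express class II constantly, and many epithelial cells do so after interferon γ. The chains are highly polymorphic between mouse strains.

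The promoter windows of *H2-Aa*, *H2-Eb1*, *H2-DMa* and *H2-DMb1* were searched for the X and Y boxes, and those of *Ciita* and *H2-Ab1* were not analysed here. The X box core was searched as AGNNACNGA, followed on the same strand after 15 to 35 bases by the Y box ATTGG, in RefSeq windows from 250 bases before to 50 after each start site (build GRCm38.p6). On the sense strand 44 of 32841 windows (0.134%) held the pair, and on either strand 80 (0.244%). Of these 4 members, *H2-DMb1* and *H2-Eb1* held it, with the X box starting at -95 and -92 from the start site. These 2 stretches are printed with the X box core and the Y box in capitals, and that of *H2-Aa*, which has the Y box but not the X box core as spelled, with the Y box in capitals.
H2-DMb1 (chr17:34153090-34153140, plus strand): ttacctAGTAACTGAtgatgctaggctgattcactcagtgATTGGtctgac
H2-Eb1 (chr17:34305769-34305818, plus strand): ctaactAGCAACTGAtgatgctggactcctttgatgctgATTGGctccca
H2-Aa (chr17:34287861-34287917, minus strand): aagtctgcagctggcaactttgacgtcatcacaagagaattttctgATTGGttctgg
The gap between the boxes was 25 bases in *H2-DMb1* and 24 in *H2-Eb1*. The pair as spelled was not in either window of *H2-DMa*. A Y box alone was common, and 12288 windows (37.4%) held one on either strand. The table used had *H2-Eb2*, a less studied β chain gene, with the same pair at a gap of 24 bases, and *H2-DMb2*, *H2-Oa* and *H2-Ob* without it. These matches are descriptions of letters and not of bound factors. They were read from the reference build, and the promoter sequence of these FVB/NJ mice was not analysed here.

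The labels were checked first on *Sox9*, the gene whose reporter was sorted. Its log2 value was 14.22 ± 0.39 (SD, n = 3) in Sox9-GFP-high and 13.21 ± 0.34 in Sox9-GFP-low arrays, a 2.02-fold difference with no overlap (limma, adjusted p = 0.0360). All 10 luminal markers, among them *Epcam* and *Krt8*, lay above the array median on every array. The array medians were 5.15 to 5.21 on the log2 scale, and arrays correlated across probe sets at 0.992 to 0.994 (Pearson's r) within a sort and 0.979 to 0.988 between sorts. No signal over background came with the values, so a value near or below the array median cannot be told from background, and fewer cells with a transcript cannot be told apart from less transcript per cell.

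No class II member passed the test between the sorts, and their differences ran in both directions. In limma over all 22206 probe sets, with a threshold of 0.05 on the Benjamini-Hochberg adjusted p, 0 of 6 members passed as higher and 0 of 6 as lower in Sox9-GFP-high cells, beside 4.0% and 3.20% of all probe sets. At an unadjusted p under 0.05 the count was 1 (*H2-Ab1*) in limma and 1 in the methods' t-test, beside 2594 higher and 1989 lower over all 22206 probe sets in limma. The median of the 6 log2 differences (Sox9-GFP-high value less Sox9-GFP-low value) was 0.12, and over all probe sets it was 0.012. The members ran from -0.44 (*H2-Aa*) to 0.64 (*H2-Ab1*). With a replicate block for the array number, 1 of 6 was higher and 0 were lower, beside 6.32% and 4.99% of all probe sets. In 2 members every Sox9-GFP-high array lay above every Sox9-GFP-low array and in 1 the reverse held, which 14.1% and 11.4% of all probe sets did.

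**Figure D1:**
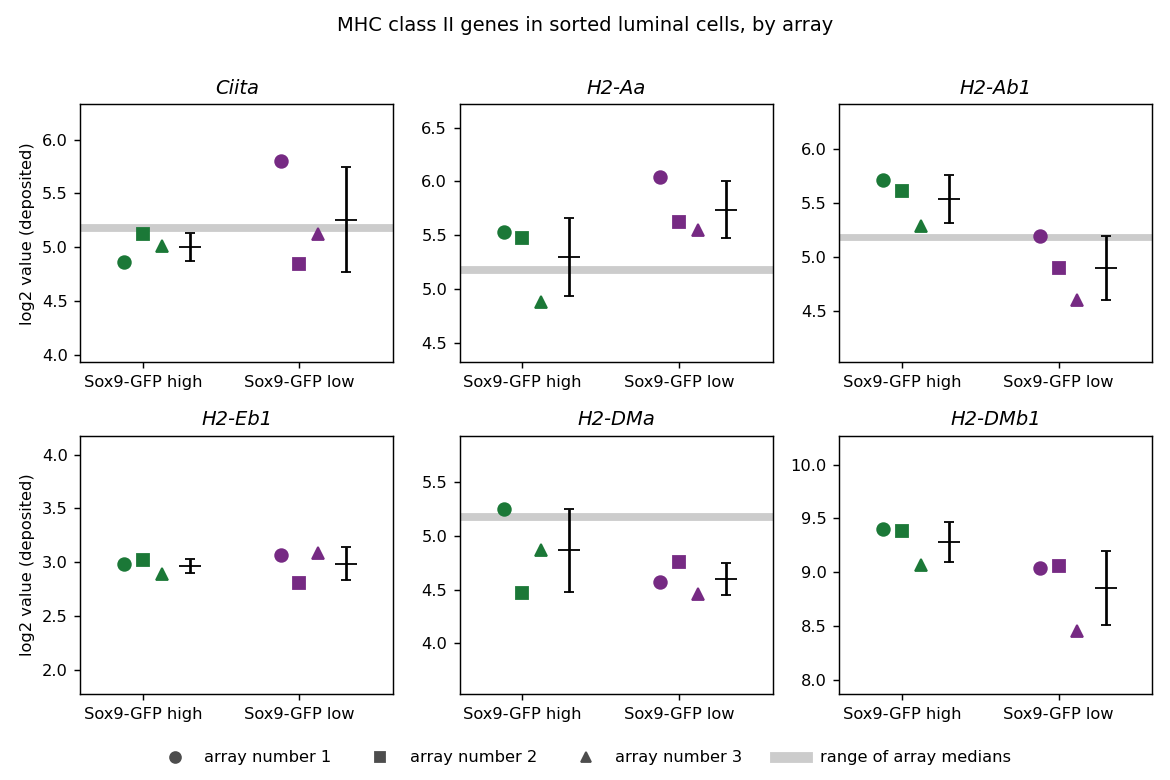
Log2 value (y axis) of the 6 measured class II genes on each array, Sox9-GFP-high in green and Sox9-GFP-low in purple, with mean ± SD beside the points, a marker shape for each array number and a grey band for the range of the array medians. *H2-Ab1* and *H2-DMb1* are higher on all 3 Sox9-GFP-high arrays, *H2-Aa* is lower on all 3, and the other 3 genes overlap.

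*Ciita*, the coactivator that switches the others on, read 4.86, 5.12 and 5.01 on the Sox9-GFP-high arrays and 5.80, 4.84 and 5.12 on the Sox9-GFP-low arrays. Only Sox9-GFP-low replicate 1 lay above its array median, and the sorts overlapped. The log2 difference was -0.26 (SE 0.24, 95% interval -0.80 to 0.28), which did not pass (limma, adjusted p = 0.639). Without that array it was 0.014, so its sign rested on 1 array.

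The chains of I-A differed between the sorts in opposite directions, and neither passed without the block. *H2-Ab1*, the β chain, read 5.72, 5.61 and 5.29 in Sox9-GFP-high and 5.19, 4.90 and 4.60 in Sox9-GFP-low cells. The 3 Sox9-GFP-low values lay below their array medians, where they cannot be told from background, and the 3 Sox9-GFP-high values lay little above theirs. All 3 Sox9-GFP-high values exceeded all 3 Sox9-GFP-low values, and within numbers 1, 2 and 3 the difference was 0.53, 0.71 and 0.68. The mean difference was 0.64 (SE 0.21, 95% interval 0.18 to 1.10), or 1.56-fold, with an adjusted p of 0.10 in limma. With the replicate block the SE was 0.16 and the adjusted p was 0.0371, so the call of *H2-Ab1* depended on the pairing. It was the only one of 16 alternatives in which *H2-Ab1* passed, with adjusted p from 0.0371 to 0.316, while the sign held in all 16. The exact permutation test gave its smallest two-sided p for 3 arrays against 3, 0.10.

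*H2-Aa*, the α chain, read 5.53, 5.48 and 4.88 in Sox9-GFP-high and 6.04, 5.62 and 5.55 in Sox9-GFP-low cells. All 3 Sox9-GFP-high values were under all 3 Sox9-GFP-low values, though narrowly. The mean difference was -0.44 (SE 0.23, 95% interval -0.95 to 0.06), which did not pass in limma with (adjusted p = 0.160) or without the block (adjusted p = 0.314). The *H2-Ab1* minus *H2-Aa* value, chosen after the values were seen, was 0.19, 0.13 and 0.41 in Sox9-GFP-high and -0.85, -0.73 and -0.95 in Sox9-GFP-low arrays. The mean of this value differed by 1.09 on the log2 scale between the sorts, a description with no test, since both genes were picked for their opposite directions. *H2-Ab1* lay below the array median on all 3 Sox9-GFP-low arrays, so this value may rest in part on background.

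*H2-Eb1*, the β chain of I-E, was the dimmest member. It read 2.98, 3.02 and 2.89 in Sox9-GFP-high and 3.06, 2.81 and 3.08 in Sox9-GFP-low cells, below the array median on all 6 arrays. The difference was -0.02 (SE 0.17, 95% interval -0.40 to 0.35; limma, adjusted p = 0.969). FVB/NJ is of the H2 q haplotype, in which I-E is not formed.

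The H2-DM chains differed in how clearly they were read. *H2-DMb1*, whose β chain completes the peptide editor, was above the array median on all 6 arrays, the only member to be so. It read 9.40, 9.38 and 9.07 in Sox9-GFP-high and 9.04, 9.06 and 8.45 in Sox9-GFP-low cells, and the sorts were narrowly apart. The difference was 0.43 (SE 0.21, 95% interval -0.04 to 0.91), 1.35-fold, and did not pass (limma, adjusted p = 0.291, with the block 0.146). Its sign held in all 16 alternatives. *H2-DMa*, the α chain of the same editor, read 5.25, 4.47 and 4.87 against 4.57, 4.76 and 4.46. The sorts overlapped, and the difference of 0.27 (SE 0.22, 95% interval -0.22 to 0.76) did not pass (limma, adjusted p = 0.569).

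Over the 6 arrays, *H2-Ab1* and *H2-DMb1* followed each other with Pearson's r of 0.928, and with 0.880 after the mean of each sort was taken off. *H2-Aa* and *H2-Ab1* gave -0.16 over all arrays and 0.917 after the sort means were taken off, so they were high or low on the same arrays inside a sort and opposite between sorts. *Ciita* gave 0.601 with *H2-Aa*, -0.093 with *H2-Ab1* and -0.17 with *H2-DMb1*, and 0.488, 0.477 and 0.164 after the sort means were taken off. These values describe 6 arrays, of which those with the same number deviated together over all probe sets, and carry no test. Of 7662 other genes compared, the 5 whose values were most like the members' mean profile were *Klf13* (r = 0.981), *Enho* (0.980), *Lin9* (0.978), *Cryz* (0.976) and *Zfp516* (0.973). All 5 overlapped between sorts and none passed. They were picked for likeness to a profile that itself overlapped between sorts, so this is no separate result.

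Of the other class II chains, 4 of 5 were measured, with a median difference of -0.24. In limma 0 passed in either direction, beside 4.0% higher and 3.20% lower over all probe sets. At an unadjusted p under 0.05 the count was 1, beside 2594 higher and 1989 lower of all 22206 probe sets. *H2-Oa* and *H2-Ob* form H2-DO, which restrains H2-DM. *H2-Oa* read 4.77, 4.88 and 5.01 in Sox9-GFP-high and 5.25, 5.14 and 5.61 in Sox9-GFP-low cells. Its difference was -0.44 with no overlap, and only Sox9-GFP-low replicates 1 and 3 lay above their array median. *H2-Ob* differed by -0.25 with no overlap, below the array median on every array. *H2-DMb2*, the second H2-DM β gene, and *H2-Eb2* differed by 0.17 and -0.23, also below the array median on every array. *H2-Ea* was not analysed here.

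The factors that act on the X and Y boxes were all above the array median on every array. None of 10 passed in limma in either direction, beside 4.0% higher and 3.20% lower over all probe sets. At an unadjusted p under 0.05 the count was 3, beside 2594 higher and 1989 lower of all 22206 probe sets. Their median difference was 0.30, and in 4 of them the Sox9-GFP-high arrays were all higher, beside 14.1% of all probe sets. *Rfx5*, the RFX subunit that binds the X box, read 7.02, 6.81 and 6.88 in Sox9-GFP-high and 5.72, 6.14 and 6.57 in Sox9-GFP-low cells. It differed by 0.76 (SE 0.22; limma, adjusted p = 0.0749), and its partners *Rfxap* and *Rfxank* by 0.30 and -0.23. *Nfyc*, a subunit of the NF-Y complex that binds the Y box, differed by 0.59 (limma, adjusted p = 0.0801) and passed with the replicate block (adjusted p = 0.0498) and with a trended and robust prior, 2 of 16 alternatives. *Kat2b*, an acetyltransferase that CIITA recruits, differed by 0.68 (limma, adjusted p = 0.118).

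The proteases and inhibitors of the endosome held the only calls on the class II route in limma without the block. Of 10 measured, 3 passed as lower and 0 as higher in the Sox9-GFP-high sort in limma, beside 3.20% and 4.0% of all probe sets, and 4 and 1 with the replicate block, beside 4.99% and 6.32%. The median difference was -0.41, beside 0.012 over all probe sets, and in 6 of 10 every Sox9-GFP-high array was lower, beside 11.4% of all probe sets. *Ctsd* was not analysed here.

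*Cst3*, cystatin C, which inhibits cathepsins, fell from 16.38 ± 0.11 in Sox9-GFP-low to 15.50 ± 0.20 in Sox9-GFP-high cells (SD, n = 3). That is 1.84-fold lower (limma, adjusted p = 0.0157). *Ctsl*, cathepsin L, which trims the invariant chain in thymic epithelium, read 11.47, 11.06 and 11.09 in Sox9-GFP-high and 12.21, 12.20 and 11.71 in Sox9-GFP-low cells, 1.79-fold lower (limma, adjusted p = 0.0383). *Ctsb*, cathepsin B, a general endosomal protease, was 1.66-fold lower, with 14.19, 13.74 and 13.75 against 14.74, 14.66 and 14.46 (limma, adjusted p = 0.0478). Each of these 3 calls was lost without single arrays, in every fit that omitted an array number, and in the methods' t-test after adjustment. *Cst3* passed in 10 of 16 alternatives, *Ctsl* in 8 and *Ctsb* in 7. Among the fits that left out a single array, *Cst3* was lost without Sox9-GFP-high or Sox9-GFP-low replicate 3, with all alternatives keeping the sign. *Ctsl* was lost without Sox9-GFP-high replicate 2 or 3 or Sox9-GFP-low replicate 1 or 2, and *Ctsb* without any array but Sox9-GFP-high replicate 1.

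*Ctsh*, cathepsin H, read 14.23, 13.26 and 12.83 against 15.05, 14.56 and 14.31, the largest difference of the list at -1.20. It did not pass in limma (adjusted p = 0.0627) and passed in 5 of 16 alternatives, among them the replicate block (adjusted p = 0.00410), array weights and a trended and robust prior. *Lgmn*, legumain, which makes the first cuts in some antigens, ran the other way with 14.13, 14.09 and 13.82 against 13.52, 13.33 and 13.22, 1.58-fold higher (limma, adjusted p = 0.0550, with the block 0.0340). It passed in 2 of 16 alternatives, the block and the trended and robust prior. *Ctss*, cathepsin S, the main invariant chain protease of professional antigen presenting cells, differed by -0.07 with a 95% interval of -0.55 to 0.41. *Ifi30*, the lysosomal thiol reductase of the route, differed by -0.40 and did not pass.

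**Figure D2:**
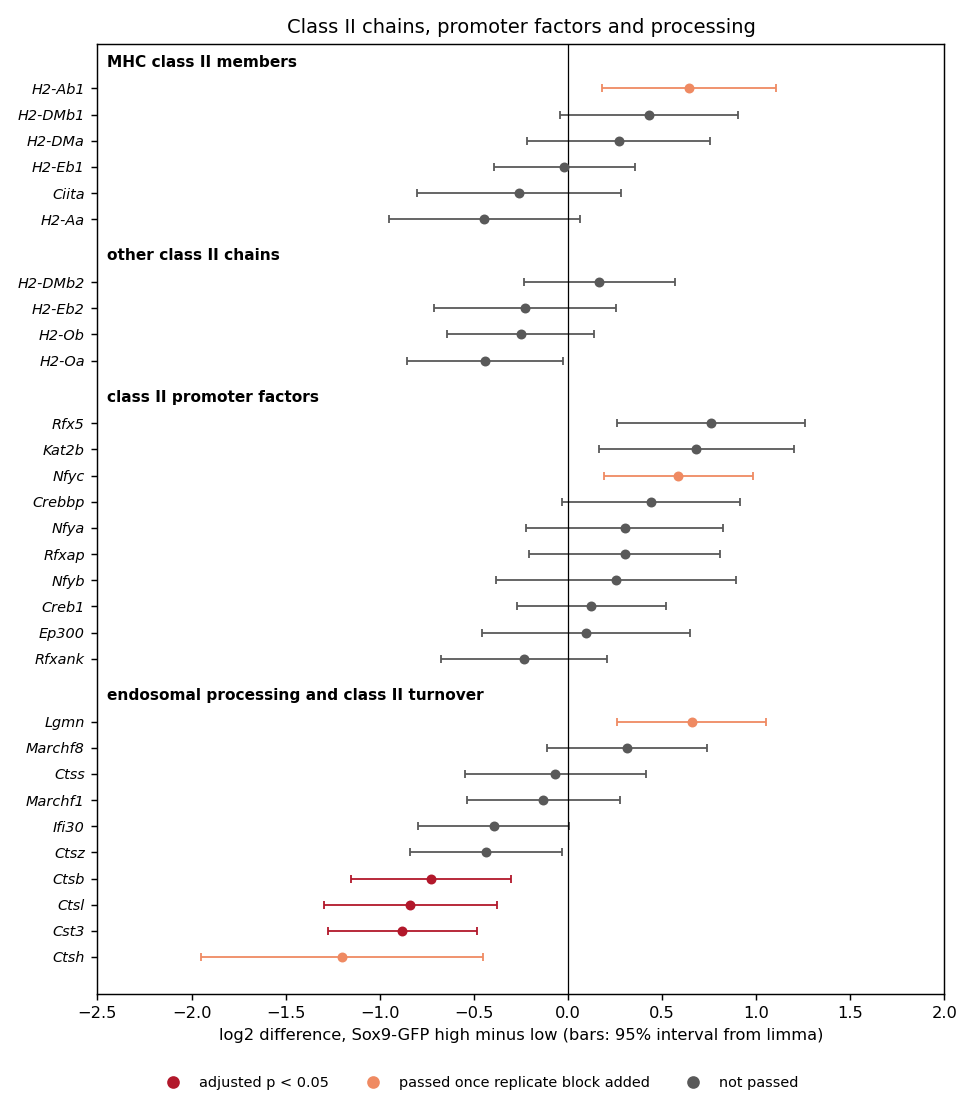
Log2 difference, with values above 0 higher in Sox9-GFP-high cells (x axis), with the 95% interval from limma for the class II members, other class II chains, promoter factors and endosomal genes. *Cst3*, *Ctsl* and *Ctsb* passed in limma without the replicate block (dark red), and *H2-Ab1*, *Nfyc*, *Lgmn* and *Ctsh* passed when that block was added to the same fit (orange).

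The 5 measured members other than *Ciita* lie in 1 cluster on mouse chromosome 17. Of the 11 protein-coding genes from *H2-DMa* to *H2-Eb1* in RefSeq order, all 11 were measured, and none of the 6 that are not members passed. Over all probe sets 4.0% passed as higher and 3.20% as lower. *Psmb9*, an immunoproteasome subunit, and *Tap1*, a subunit of the peptide transporter, differed by 0.48 and 0.40, while *Psmb8* and *Tap2*, the partners of each, differed by -0.02 and -0.09. *H2-Ab1* and *H2-Aa*, next to each other, had differences of opposite sign.

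**Figure D3:**
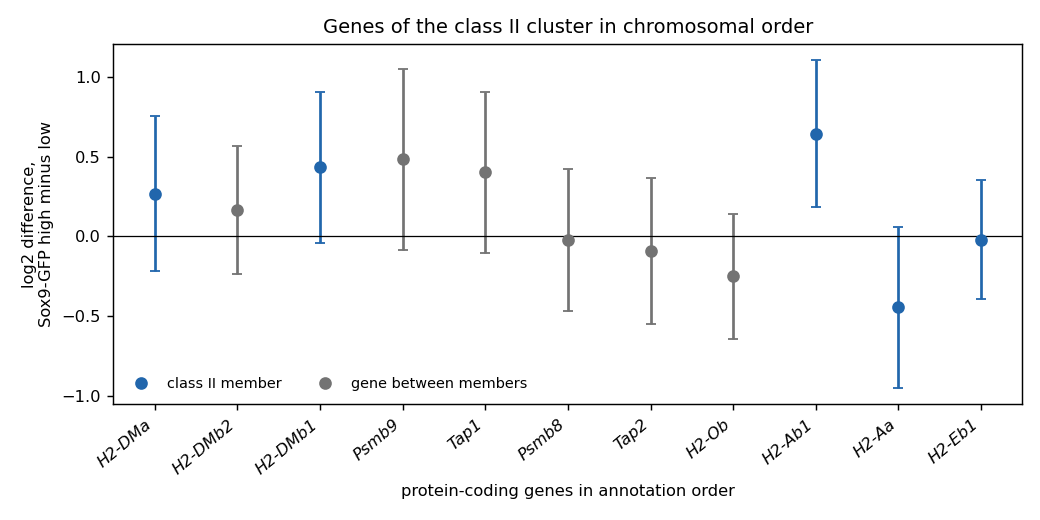
Log2 difference, with values above 0 higher in Sox9-GFP-high cells (y axis, with 95% intervals from limma), of the 11 protein-coding genes of the cluster in chromosomal order (x axis), members in blue and the others in grey. The values go from -0.44 at *H2-Aa* to 0.64 at its neighbour *H2-Ab1*, and the 6 other genes lie between -0.25 and 0.48.

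Interferon γ is the known inducer of *Ciita* in epithelium, and its own route was measured in 14 genes. 1 of them passed as higher and 0 as lower, beside 4.0% and 3.20% of all probe sets, and the median difference was 0.025. At an unadjusted p under 0.05 in limma the count was 3, beside 2594 higher and 1989 lower of all 22206 probe sets. *Cxcl10*, a chemokine made in response to interferon, read 6.64, 6.05 and 6.09 in Sox9-GFP-high and 5.54, 4.78 and 5.11 in Sox9-GFP-low cells. It was 2.17-fold higher (limma, adjusted p = 0.0221) and passed in 10 of 16 alternatives. The call was lost without Sox9-GFP-high replicate 1, Sox9-GFP-low replicate 2 or 3, number 2 or number 3. It was also lost in the methods' t-test after adjustment. *Ido1*, another interferon γ target, ran the other way, by -0.72 (limma, adjusted p = 0.199), and passed as lower with the replicate block (adjusted p = 0.0280). The receptor genes *Ifngr1* and *Ifngr2* differed by 0.03 and 0.48 and *Irf1*, the factor that acts on the *Ciita* promoter, by 0.00 (95% interval -0.65 to 0.66).

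MHC class I, which presents peptides of the cytosol, was read above the array median on all arrays in 15 of 16 genes. This held for 1 of 6 class II members. The counts set signals of different probe sets side by side and do not rank expression between genes. Whether the probes match the FVB/NJ sequences was not tested. None of the 16 passed in either direction, beside 4.0% higher and 3.20% lower over all probe sets, and the median difference was 0.027. In limma 3 had an unadjusted p under 0.05, beside 2594 higher and 1989 lower of all 22206 probe sets. *H2-D1*, a class I heavy chain, read 13.87, 13.69 and 14.06 against 13.16, 13.09 and 13.37, 1.59-fold higher (limma, adjusted p = 0.0519, with the block 0.0306), and it passed in 4 of 16 alternatives. *Psmb10*, an immunoproteasome subunit, differed by -0.75 and passed as lower in 1 of 16 alternatives, the block (limma, adjusted p = 0.0266). *H2-K1*, another heavy chain, and *B2m*, the light chain, differed by 0.34 and -0.13. *H2-T23*, the exception among the 16, lay below the array median on every array and differed by -0.08. *Nlrc5* was not analysed here.

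Co-stimulation and checkpoint ligands decide what a T cell does after it reads a peptide. Of 9 such genes 0 passed, beside 4.0% higher and 3.20% lower over all probe sets. In limma 3 had an unadjusted p under 0.05, beside 2594 higher and 1989 lower of all 22206 probe sets. Of the 9 genes, 7 lay below the array median on every array. *Cd80* and *Cd86*, the ligands of CD28, differed by -0.50 and -0.30, overlapped between sorts and did not pass. *Tnfsf4* was 0.54 higher, also with overlap (limma, adjusted p = 0.204). These 3 genes lay below the array median on every array. *Icosl* lay above it on every array and was 0.52 higher in Sox9-GFP-high cells with no overlap, and did not pass (limma, adjusted p = 0.178). *Icam1*, an adhesion ligand that also stabilizes the T cell contact, read 15.05, 14.65 and 14.29 against 14.0, 13.33 and 13.96, 1.87-fold higher (limma, adjusted p = 0.0609, with the block 0.0282), and passed in 2 of 16 alternatives, the block and the trended and robust prior.

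**Figure D4:**
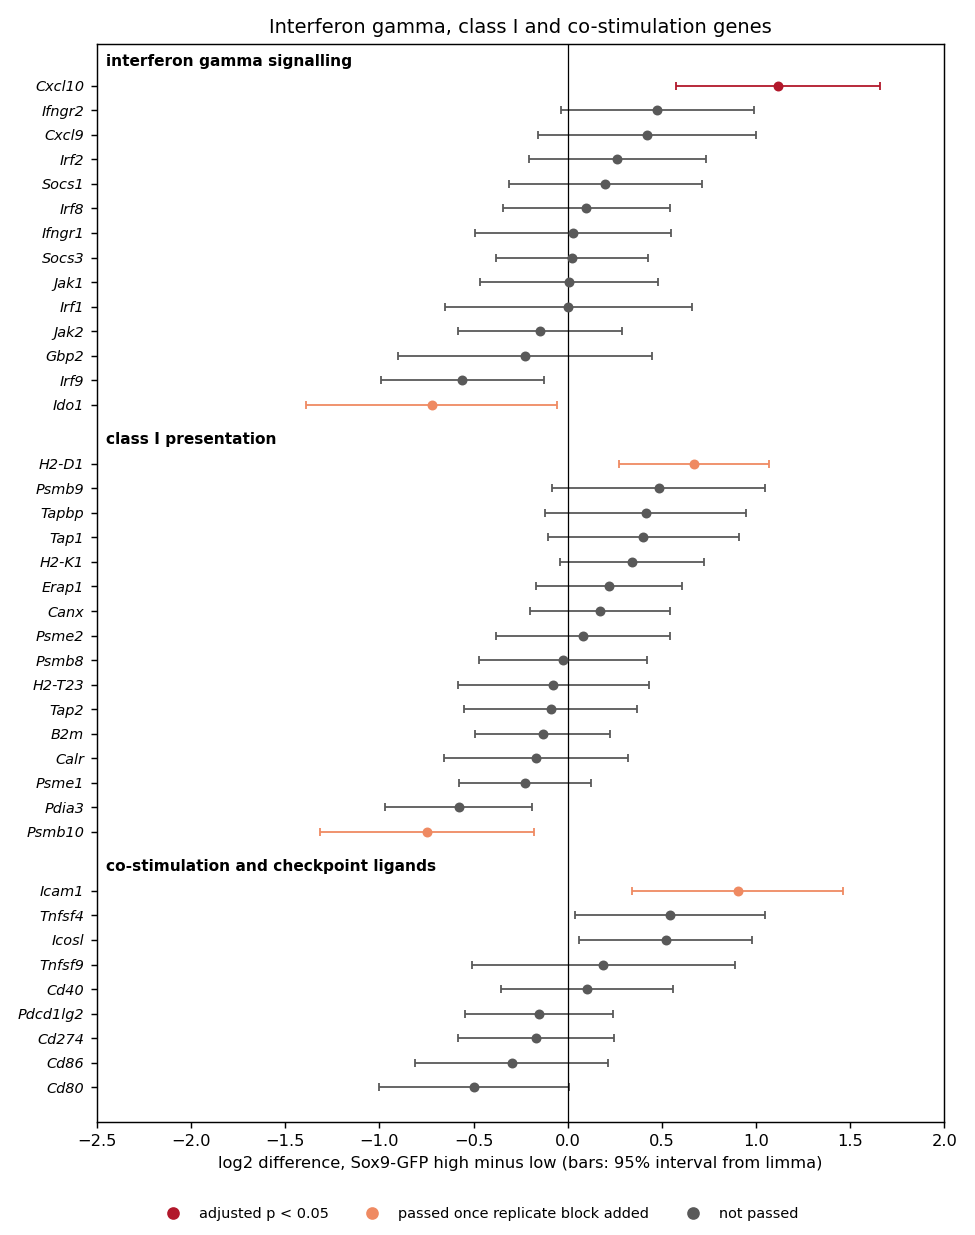
Log2 difference, with values above 0 higher in Sox9-GFP-high cells (x axis), with the 95% interval from limma for interferon γ, class I and co-stimulation genes. *Cxcl10* at 1.12 passed in limma without the replicate block (dark red), and *H2-D1*, *Icam1*, *Ido1* and *Psmb10* passed when that block was added to the same fit (orange).

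Class II RNA in a sorted gland sample can come from leukocytes, so their markers were read on the same arrays. All 7 measured B cell markers lay below the array median on every array, with a mean level of 3.29 to 3.46 in Sox9-GFP-high and 3.44 to 3.51 in Sox9-GFP-low arrays. Of 8 dendritic cell markers 7 did, the exception being *Ccr7*, with mean levels of 3.81 to 3.94 and 3.90 to 3.94. The macrophage list gave 7 of 10 below, with 4.0 to 4.17 against 4.15 to 4.36. The T cell list gave 4 of 6, with 3.93 to 4.10 against 3.82 to 4.0. In that list *Cd4* read 6.28 to 6.74, above the array median on all 6 arrays, and differed by -0.01. None of the genes of these 4 lists passed in either direction, beside 4.0% higher and 3.20% lower over all probe sets. *Xcr1*, a receptor of cross-presenting dendritic cells, had the largest difference of its list at -0.57 (limma, adjusted p = 0.0641), with 3.28, 3.39 and 3.29 against 3.83, 3.88 and 3.95, and *Zbtb46* differed by 0.23. In the B cell list *Cd22* and *Blk* differed by -0.41 and -0.19, in the macrophage list *Aif1* and *Mrc1* by -0.51 and -0.38, and in the T cell list *Cd2* and *Cd3e* by 0.53 and 0.12. *Ptprc*, which encodes the defining leukocyte marker CD45 and against which an antibody is listed among the study's reagents, read 4.69 to 4.95 on the 6 arrays, below every array median, and differed by 0.05.

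Of 10 pan-leukocyte genes 8 lay below the array median on every array, and 1 passed, as lower, beside 3.20% of all probe sets. *Lcp1*, plastin 2, read 9.03, 8.90 and 8.28 in Sox9-GFP-high and 12.92, 12.73 and 12.04 in Sox9-GFP-low cells, 14.2-fold lower (limma, adjusted p = 2.29e-04), a call lost in 1 of 16 alternatives, the methods' t-test. The mean level of the list was 4.46 to 4.66 against 4.85 to 4.93. Without *Lcp1*, a choice made after its values were seen, it was 4.04 to 4.18 against 3.96 to 4.09. The share of leukocyte RNA in *H2-Ab1*, *H2-Aa* or *H2-DMb1* was not tested. On the epithelial side, *Krt19*, a luminal keratin, was 3.14-fold lower in Sox9-GFP-high cells (limma, adjusted p = 0.00130), and no other luminal marker passed. Of 8 basal markers 0 passed in either direction, with 2 at an unadjusted p under 0.05 and a median difference of 0.020. *Mylk*, the myosin light chain kinase of contractile cells, read 8.85, 6.96 and 5.38 in Sox9-GFP-high and 5.33, 4.14 and 4.14 in Sox9-GFP-low cells, 5.77-fold apart (limma, adjusted p = 0.0604), and passed with the replicate block (adjusted p = 0.00263). *Acta2*, smooth muscle actin, differed by -0.64.

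**Figure D5:**
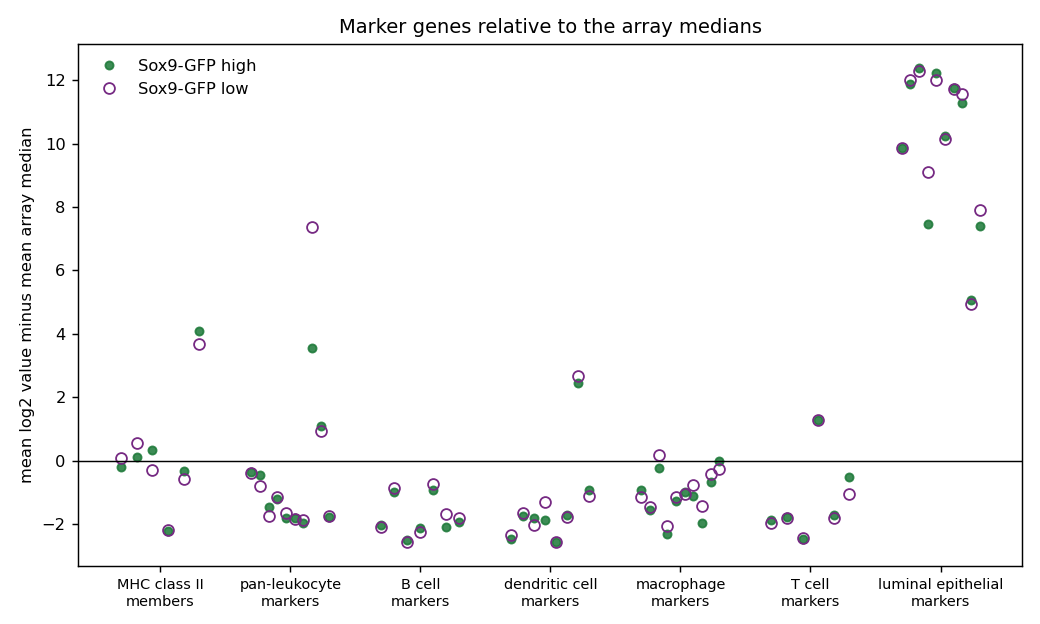
Mean log2 value minus the mean array median (y axis), 1 point for each gene and sort, for the class II members and 6 marker lists (x axis), filled green for Sox9-GFP-high and open purple for Sox9-GFP-low. Luminal markers lie far above 0, and most leukocyte markers and all 7 B cell markers lie below it. *Lcp1*, *Arhgdib*, *Ccr7*, *Cd4* and *H2-DMb1* are among the genes above it in their lists.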

How the data were processed

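RNA of FACS-sorted luminal cells was labelled with biotin (GeneChip WT PLUS, per the labels) and hybridised to 6 one-colour arrays. The values deposited by the authors are log2 per probe set, with software and normalization not given in the sources used here. Probe sets were named by the annotation of the array: of 22206, 19572 had 1 gene symbol, 0 had several and 2634 were unnamed here, and all 19572 matched a RefSeq table (GRCm38.p6) with 0 symbols changed. A gene with several probe sets (55 genes) was represented by the one with the highest mean.

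The test was limma 3.58.1 (R 4.3.3), using lmFit and eBayes over all probe sets without a block, two-sided, because the paper names an unpaired test, and p-values were adjusted by Benjamini-Hochberg. Arrays of the same number in the 2 sorts had deviations from their sort means that correlated at 0.236, 0.232 and 0.218. Those of different numbers reached at most -0.060. The deviations of a sort sum to 0 for each probe set, so these negative values follow from the positive ones and add no evidence. Arrays were treated as paired by number in the replicate block. The test was checked on simulated data with 200 of 22206 probe sets changed, in 10 runs. It recovered 35.1% of changes of 1 and 87.2% of changes of 2 on the log2 scale, and 3.39% of its calls were false. The simulated arrays were independent, without the correlation by number, and fewer probe sets changed than the 888 and 711 called here. Changes as small as the members' differences, at most 0.64, were not simulated, so their recovery is not known. The number of arrays limits the precision.

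The members, the 13 other lists and the rules were chosen with earlier results of these data known. Named were all members, *Sox9*, every list member that passed, otherwise those with the largest differences, and the 5 genes most like the members' mean profile (SD of at least 0.3). *H2-K1*, *B2m*, *Ctss*, *Irf1*, *Ifngr1*, *Ptprc* and other genes named for their role were added after their values were seen. Alternatives were the replicate block, quantile normalization, centring each array on its median, dropping the dimmest 33% of probe sets, array weights, a prior both trended and robust, fits that omitted single arrays or single numbers, and the methods' t-test.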

Additional observations from a re-analysis of the deposited data

How the results depend on the processing

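The 0 members higher became 1 (*H2-Ab1*, adjusted p = 0.0371) with the replicate block, and the 0 lower stayed 0. In every other alternative run, limma or the methods' t-test called 0 members. The members' median difference was 0.023 to 0.18 when arrays or numbers were left out. It has no value without the dimmest 33% of probe sets, where *H2-Eb1* falls out. Over all probe sets, 888 higher and 711 lower became 1404 and 1108 with the block, 1 and 2 with the methods' t-test (2118 and 1647 at an unadjusted p under 0.05, beside 2594 and 1989 in limma), and 231 to 672 and 316 to 563 when arrays or numbers were left out. The other alternatives gave 827 to 942 higher and 713 to 764 lower. The differences of *Ciita* (-0.53 to 0.082) and *H2-Eb1* (-0.14 to 0.067) changed sign among the fits that left arrays out, and those of *H2-Aa*, *H2-Ab1*, *H2-DMa* and *H2-DMb1* did not. The cause was not tested. No mean over probe sets could be set against the members, which have 1 each. The pan-leukocyte list without *Lcp1* and the *H2-Ab1* minus *H2-Aa* value were added after the data were seen. Values near the array median, which is where most members lie, may be background, and leaving out arrays also leaves fewer degrees of freedom.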
